A study of Mus musculus with 4 samples.

Results

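The genes studied were 7 matrix metalloproteinases, *Mmp2*, *Mmp3*, *Mmp9*, *Mmp11*, *Mmp13*, *Mmp14* and *Mmp23*, and 3 tissue inhibitors of metalloproteinases (TIMPs), *Timp1*, *Timp2* and *Timp3*. They were chosen by name, and all 10 were found among the 46517 genes listed. Matrix metalloproteinases are zinc enzymes that cleave collagens and other extracellular matrix proteins. Most are secreted or held at the membrane as inactive precursors and are activated when their propeptide is removed. TIMPs bind the active site and block it, so the matrix that a cell leaves in place depends on both families. In bone repair these enzymes clear the fibrous and cartilage matrix that new bone replaces.

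The cells were PαS cells, a population rich in mesenchymal stem cells, sorted as CD45- CD11b- Ter119- CD31- CD34- PDGFRα+ Sca-1+ cells from injured tissue inside and around the femur of wild-type C57BL/6J mice. All were cultured for 7 days in osteogenic medium, in 1 of 4 conditions: without cytokine, with interleukin (IL)-17A at 10 ng/ml, with bone morphogenetic protein (BMP)-2 at 500 ng/ml, or with both at these concentrations. The age and number of the mice are not given in the labels, nor whether cells were pooled. Each condition was measured by RNA sequencing of 1 library, so no difference between conditions has a replicate check.

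The libraries held 4190612 to 4719412 exon reads. Their TMM scaling factors, which make libraries comparable on the bulk of genes, were applied to the read ratios between libraries below, except where another scaling is named. Unique reads and reads across an exon junction (spliced reads) had TMM factors of their own. Sums of RPKM were not scaled by TMM and carry no interval. Each ratio of reads has an exact 95% interval that covers counting error only. Reads amplified by PCR and carrying no molecular identifiers are not separate molecules. Genes that averaged at least 10 exon reads, 11352 in all, were treated as measured, and 8 of the 10 genes were among them. *Mmp9*, with a mean of 4 reads, and *Mmp13*, with 0, were not. Markers of the sorted cells, *Pdgfra*, *Ly6a* (Sca-1), *Cd44*, *Itgb1* and *Thy1*, had reads in every library, though not at equal levels. *Pdgfra* had 739 reads under no cytokine, 698 under IL-17A, 375 under BMP-2 and 695 under both. Its ratio for BMP-2 over no cytokine was 0.498 (0.439 to 0.565). For both over no cytokine, *Itgb1* had a ratio of 0.610 (0.585 to 0.637) and *Thy1* 1.14 (0.939 to 1.40). The endothelial genes *Pecam1* and *Cdh5* had no reads. The other 3 endothelial markers differed between libraries, with 117, 0, 70 and 0 reads of *Kdr*, 0, 51, 63 and 23 of *Tek*, and 94, 44, 12 and 0 of *Cd34*, a marker used to gate cells out, under no cytokine, under IL-17A, under BMP-2 and under both. Their part in the results was not tested. In bulk RNA, fewer cells that express a gene and less of its RNA per cell cannot be told apart.

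The deposited gene positions are on mouse build mm10. *Mmp3* lies on chromosome 9 at 7445822 to 7455972 and *Mmp13* on the same chromosome at 7272514 to 7283333. *Mmp2* lies on chromosome 8 (92827328 to 92853417), *Mmp9* on chromosome 2 (164940780 to 164955850), *Mmp11* on chromosome 10 (75923222 to 75932502), *Mmp14* on chromosome 14 (54431612 to 54441265) and *Mmp23* on chromosome 4 (155650655 to 155653384). *Timp1* lies on chromosome X (20870166 to 20874735), *Timp2* on chromosome 11 (118301069 to 118355740) and *Timp3* on chromosome 10 (86300372 to 86349506).

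RefSeq promoter sequences on GRCm38.p6 were found for 8 of the 10 genes, with 9 start sites. *Mmp2* and *Mmp9* had no entry. The 250 bases before the start were searched on both strands for TGANTCA, the AP-1 motif, and on the gene strand for TATAAA. An AP-1 match was found in *Mmp3* and *Mmp13*, and in none of the other 7 windows. These were also the only windows with TATAAA. Of 32851 mouse promoters, 6.75% held an AP-1 match and 7.59% held TATAAA in a window of this length. The first base of the match was 46 bases before the start in *Mmp3* and 35 in *Mmp13*, and TATAAA began 7 and 16 bases before it. The windows of *Mmp3* and *Mmp13* are printed because these genes share the motif and lie near each other, yet had unlike read counts. Those of *Timp1* and *Timp2* are printed as the most abundant inhibitors, without a match. The RefSeq start of *Timp2*, 118355411 on the minus strand, lies inside its deposited gene position, which extends to 118355740. The window of *Timp2* is thus within the deposited gene and not before it. Capitals mark the AP-1 match, and each window is read on the strand of its gene.
Mmp3, chr9:7445572-7445821, plus strand: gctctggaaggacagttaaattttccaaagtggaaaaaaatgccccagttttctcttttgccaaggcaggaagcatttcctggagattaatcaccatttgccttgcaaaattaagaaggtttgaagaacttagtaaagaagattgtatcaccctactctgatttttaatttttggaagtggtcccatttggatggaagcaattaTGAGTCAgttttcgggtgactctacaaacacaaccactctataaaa
Mmp13, chr9:7272264-7272513, plus strand: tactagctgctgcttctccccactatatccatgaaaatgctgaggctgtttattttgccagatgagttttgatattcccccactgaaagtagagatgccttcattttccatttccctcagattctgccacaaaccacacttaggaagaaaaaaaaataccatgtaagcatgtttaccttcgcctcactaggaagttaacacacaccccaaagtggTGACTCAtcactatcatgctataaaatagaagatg
Timp1, chrX:20869916-20870165, plus strand: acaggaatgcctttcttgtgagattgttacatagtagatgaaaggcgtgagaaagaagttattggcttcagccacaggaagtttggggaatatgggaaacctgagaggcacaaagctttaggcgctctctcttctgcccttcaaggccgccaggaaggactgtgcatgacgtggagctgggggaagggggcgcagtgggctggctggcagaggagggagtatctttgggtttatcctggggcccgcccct
Timp2, chr11:118355412-118355661, minus strand: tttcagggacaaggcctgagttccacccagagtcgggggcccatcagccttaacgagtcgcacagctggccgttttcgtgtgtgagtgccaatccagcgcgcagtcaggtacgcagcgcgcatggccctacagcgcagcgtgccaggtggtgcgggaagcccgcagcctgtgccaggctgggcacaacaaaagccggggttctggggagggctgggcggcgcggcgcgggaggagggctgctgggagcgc
A match describes the letters of the window and shows no binding.

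The cells expressed few metalloproteinases strongly. Levels of different genes were compared as RPKM, in which reads are divided by exon length and by library size. *Mmp14*, a membrane-bound collagenase that activates pro-MMP-2, had 136 RPKM under no cytokine, 143 under IL-17A, 128 under BMP-2 and 133 under both. *Mmp23*, a small membrane-type enzyme, had 140, 116, 119 and 101 RPKM in the same order. *Mmp2*, gelatinase A, had 116, 111, 114 and 99.2 RPKM. These 3 genes stayed within a narrow band of levels and made up 83.8 to 92.3% of the RPKM of the 7 metalloproteinases.

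*Mmp11*, stromelysin-3, had 27.0, 24.1, 31.6 and 28.4 RPKM under no cytokine, under IL-17A, under BMP-2 and under both. *Mmp3*, stromelysin-1, which cleaves proteoglycans and non-fibrillar collagens and activates other pro-MMPs, had 5.58, 16.7, 11.1 and 35.8 RPKM. *Mmp3* was thus the lowest of the 5 measured metalloproteinases in 3 libraries and passed *Mmp11* with both cytokines, where it held 9.01% of the summed metalloproteinase RPKM against 1.31% without cytokine.

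The inhibitors were far more abundant. *Timp1*, a soluble inhibitor of most MMPs, had 1461 RPKM under no cytokine, 1941 under IL-17A, 1903 under BMP-2 and 3280 under both. It ranked between 5 and 11 among all genes by RPKM in each library. *Timp2*, which also takes part in the activation of pro-MMP-2 by MMP-14, had 693, 648, 702 and 355 RPKM. *Timp3*, the inhibitor that binds to the matrix and also blocks ADAM proteases, had 98.6, 51.7, 93.3 and 50.6 RPKM. The order *Timp1*, *Timp2*, *Timp3* held in all 4 libraries.

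**Figure D1:**
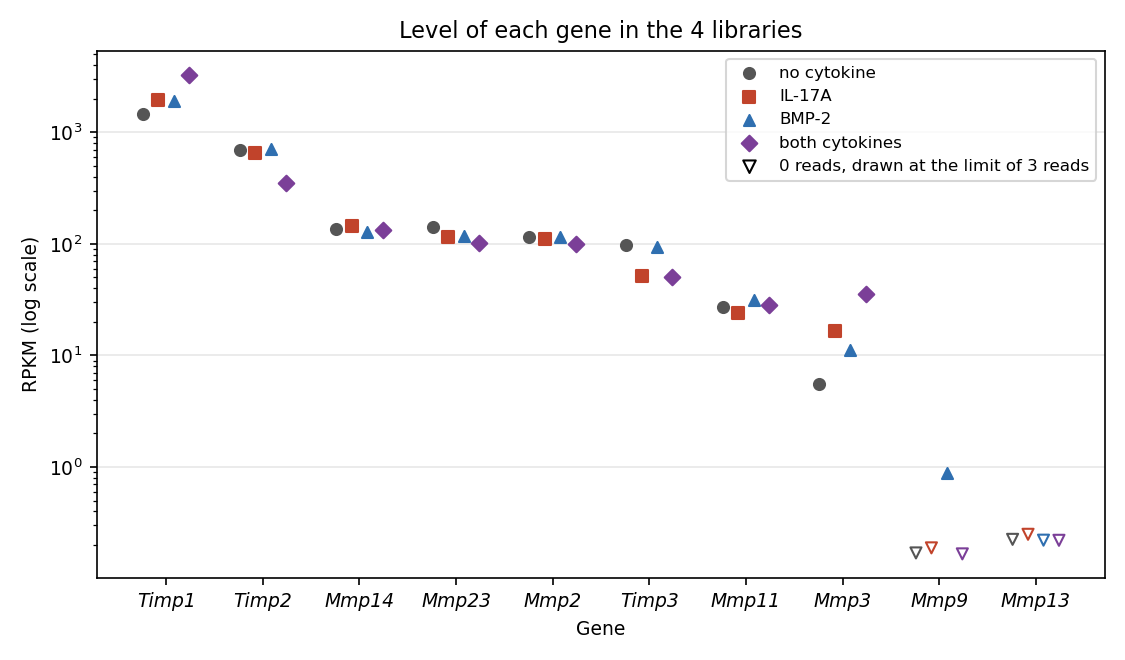
RPKM (log scale) of the 10 genes, ordered by mean, in the 4 libraries, with 1 point per library. Open triangles stand for 0 reads and are drawn at the limit that 3 reads would give; *Timp1* and *Mmp3* are highest with both cytokines, at 3280 and 35.8 RPKM, and *Timp2* is lowest there, at 355.

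*Mmp3* differed most between conditions. It had 50 exon reads under no cytokine, 135 under IL-17A, 101 under BMP-2 and 327 under both. Scaled by TMM, the ratio to no cytokine was 2.94 (2.11 to 4.16) under IL-17A, 1.98 (1.40 to 2.84) under BMP-2 and 6.25 (4.63 to 8.59) under both. The level with both was above each cytokine alone, 3.15 times that with BMP-2 (2.51 to 3.98) and 2.12 times that with IL-17A (1.73 to 2.62). Each interval excluded 1. Only the ratio for BMP-2 alone fell short of 2-fold, and it was 2.02 with uniquely assigned reads and 1.72 (1.13 to 2.67) with spliced reads.

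Other genes give a scale for these values. Among 5877 genes averaging 100 to 1000 exon reads, the central 90% of log2 ratios ran from -0.93 to 0.98 for IL-17A over no cytokine, from -0.99 to 0.95 for BMP-2, and from -1.20 to 1.10 for both. *Mmp3*, with a mean of 153 reads but 50 without cytokine, lay above these bands at 1.56, 0.99 and 2.64. Among 1891 genes averaging 50 to 100 reads the bands ended at 1.75, 1.74 and 1.92, so that *Mmp3* was inside them for either cytokine alone and above for both. The 3 ratios share the library without cytokine. The genes nearest to *Mmp3* in these 3 log2 ratios, of 8606 averaging at least 50 reads, were *Prim2* at a distance of 0.20, *Rmi1* at 0.34 and *Dis3l2* at 0.35.

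*Timp1* had 6469 exon reads under no cytokine, 7739 under IL-17A, 8566 under BMP-2 and 14807 under both. The ratio to no cytokine was 1.30 with either cytokine alone (1.26 to 1.35 for IL-17A, 1.26 to 1.34 for BMP-2) and 2.19 (2.12 to 2.25) with both. The library with both was 1.68 times that with BMP-2 (1.64 to 1.73) and also 1.68 times that with IL-17A (1.63 to 1.72). All 5 ratios exceeded counting error, and the ratio of both over no cytokine exceeded 2-fold. Among 830 genes averaging 1000 to 20000 reads, the central 90% of log2 ratios ended at 0.53 under IL-17A, 0.43 under BMP-2 and 0.62 under both over no cytokine. *Timp1* lay inside the first pair of bands, at 0.38 each, and above the last, at 1.13. The nearest patterns were those of *Med6*, *Thoc5* and *Aak1*, at distances of 0.043, 0.048 and 0.084.

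*Timp1* lies within *Syn1*, a gene on the opposite strand, and 75.5 to 78.7% of its exon reads were assigned to it uniquely. *Syn1* itself had 3 to 25 exon reads. With unique reads the ratios of *Timp1* were 1.32, 1.28 and 2.25 for IL-17A, BMP-2 and both over no cytokine. Its unique and spliced reads were nearly equal in number, 4958 and 4976 under no cytokine and 11657 and 11687 under both.

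*Timp2* stood out in the opposite direction. It had 13460 exon reads under no cytokine, 11335 under IL-17A, 13860 under BMP-2 and 7026 under both. The ratio was 0.918 (0.895 to 0.941) with IL-17A and 1.01 (0.987 to 1.03) with BMP-2, but 0.499 (0.485 to 0.513) with both, all over no cytokine. With both it was 0.494 times the level with BMP-2 (0.480 to 0.508) and 0.544 times that with IL-17A (0.528 to 0.560). The library with both was therefore alone in being low. The log2 ratio of -1.003 for both over no cytokine lay below the band of -0.85 to 0.62 of the 830 genes of like depth. Scaled by library totals, the ratios of both over no cytokine and over BMP-2 were 0.517 and 0.507, short of 2-fold. The patterns nearest to *Timp2* were those of *RP23-169H9.3*, *Dag1* and *Gpr108*, at distances of 0.059, 0.085 and 0.089.

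*Timp3* was low in both libraries with IL-17A. It had 4002 exon reads under no cytokine, 1890 under IL-17A, 3853 under BMP-2 and 2095 under both. IL-17A over no cytokine gave a ratio of 0.515 (0.487 to 0.544), and both over BMP-2 gave 0.529 (0.502 to 0.559). BMP-2 over no cytokine gave 0.945 (0.904 to 0.988), and both over IL-17A gave 0.972 (0.913 to 1.04), which did not differ from 1 beyond counting error. Thus the libraries with IL-17A were low and those without it high. The ratio of both over no cytokine was 0.5003 (0.474 to 0.528), just short of 2-fold. The log2 ratio of -0.96 for IL-17A lay below the band of -0.61 to 0.53 of the 830 genes.

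*Timp3* lies within *Syn3*, on the opposite strand, and only 9.59 to 11.7% of its exon reads were assigned uniquely, 201 to 435 per library. *Syn3* had 8 to 18 exon reads. With unique reads the ratio was 0.555 for IL-17A over no cytokine, 0.442 for both over no cytokine, 0.499 for both over BMP-2 and 0.796 (0.655 to 0.968) for both over IL-17A. Most *Timp3* reads were thus not assigned uniquely. Unique and spliced reads of *Timp3* were nearly equal in number, 435 and 436 under no cytokine and 201 and 201 under both. Ratios by unique and by spliced reads are therefore not separate checks for this gene.

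*Mmp2*, *Mmp11*, *Mmp14* and *Mmp23* differed little. *Mmp14* had 2066 to 2178 exon reads, and its ratios in the 5 comparisons lay between 0.919 and 1.03. *Mmp2* had 1508 to 1758 reads and ratios of 0.833 to 0.982, the lowest for both over no cytokine (0.778 to 0.893). *Mmp11* had 278 to 412 reads and ratios of 0.876 to 1.17. *Mmp23* had 1636 reads under no cytokine, 1221 under IL-17A, 1407 under BMP-2 and 1201 under both. Its ratios of 0.702 to 0.863 were below 1 beyond counting error in all 5 comparisons. In unspliced exon reads its ratios over no cytokine were 0.660, 0.733 and 0.777 for IL-17A, BMP-2 and both. There, however, both over BMP-2 gave 1.06 (0.889 to 1.26) and both over IL-17A gave 1.18 (0.978 to 1.42). None of the 4 genes reached 2-fold in any comparison.

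**Figure D2:**
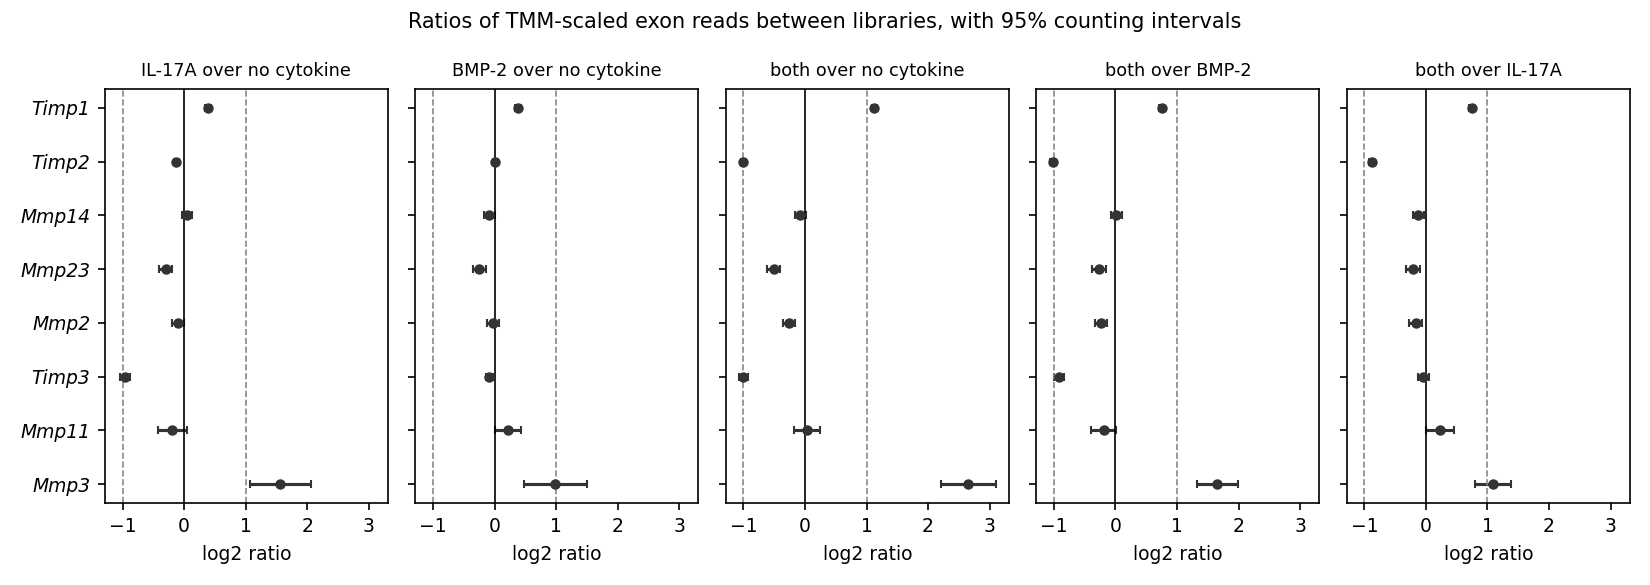
Log2 ratios of TMM-scaled exon reads for the 8 measured genes in the 5 comparisons between libraries. Bars are exact 95% counting intervals and dashed lines mark 2-fold; *Mmp3* lies furthest to the right with both over no cytokine, at 2.64, and *Timp2* and *Timp3* lie at -1.003 and -0.9992 in that panel.

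Counted over the 8 measured genes, a gene was called when its ratio was at least 2-fold and its interval excluded 1. IL-17A over no cytokine called 1 gene higher (*Mmp3*) and none lower, where 10.9% of all measured genes were called higher and 9.91% lower. BMP-2 over no cytokine called none, where 10.7% of genes were called higher and 11.7% lower. Both over no cytokine called 2 higher (*Mmp3* and *Timp1*) and 1 lower (*Timp2*), against 12.2% and 14.1% of genes. Both over BMP-2 called 1 higher (*Mmp3*) and 1 lower (*Timp2*), against 12.9% and 14.1%. Both over IL-17A called 1 higher (*Mmp3*), against 10.1% higher and 13.5% lower. A single call among 8 genes is a share close to these backgrounds. The median log2 ratio of the 8 genes was -0.11, -0.01, -0.17, -0.21 and -0.08 in the 5 comparisons, and that of all measured genes lay between -0.01 and 0.01.

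At any fold, 5 of the 8 genes differed beyond counting error in IL-17A over no cytokine, where 59.1% of all genes did, and 5 in BMP-2 over no cytokine, where 60.7% did. The count was 6 of 8 in both over no cytokine (65.2% of all genes), in both over BMP-2 (66.0%) and in both over IL-17A (62.5%). The shares among the 8 genes were near the background here too, which again was not matched for depth.

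An additive model over the 4 libraries tested each cytokine across libraries with and without the other. Each gene leaves 1 residual degree of freedom, and its error is moderated with that of the other genes tested. That error measures departure from additivity and not spread between cultures. In edgeR's quasi-likelihood test with Benjamini-Hochberg adjustment over all genes, IL-17A called 0 of the 8 genes and 1 gene, or 0.00881%, of all. At an unadjusted p under 0.05, 3 of the 8 were found, where 5.49% of all genes were. *Timp3* had a log2 fold change of -0.94 (unadjusted p = 0.00112, edgeR adjusted p = 0.533), *Mmp3* 1.61 (0.00696, adjusted 0.815) and *Timp1* 0.57 (0.0098, adjusted 0.876). DESeq2 called 49 genes for IL-17A, among them *Timp3* (DESeq2 adjusted p = 0.00111) and none of the other 7. Over the alternatives, including DESeq2, the adjusted p of *Timp3* ran from 0.00111 to 0.906.

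For BMP-2, edgeR called 0 of the 8 genes and 0% of all genes, and 2 of the 8 had an unadjusted p under 0.05, where 3.63% of all genes did. These were *Timp1*, with a log2 fold change of 0.56, and *Mmp3*, with 1.04, both at an edgeR adjusted p of 0.987. DESeq2 called 9 genes for BMP-2 and none of the 8.

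Departure from additivity was measured as the log2 of the level with both, times that without cytokine, over the product of the levels with each alone. It was -0.89 (-0.95 to -0.84) for *Timp2* and 0.37 (0.31 to 0.43) for *Timp1*. *Timp2* was thus lower with both cytokines, and *Timp1* higher, than the product of the single ratios, beyond counting error. Among 839 genes averaging at least 1000 reads the central 90% ran from -0.80 to 0.73. *Timp1* lay inside this band and *Timp2* below it, and 31 of these genes, *Timp2* included, were at or below the value of *Timp2*. *Mmp3*, at 0.10 (-0.47 to 0.67), and *Timp3*, at 0.04 (-0.07 to 0.15), did not differ from the product beyond counting error. *Mmp11*, *Mmp14* and *Mmp23* also had intervals that included 0, and *Mmp2* had -0.14 (-0.28 to -0.00019).

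The summed RNA of the families stood in a different proportion in each library. The inhibitor sum was highest with both cytokines, where *Timp1* was highest and *Timp2* lowest. These sums are of RNA and do not measure inhibition or protease activity. The summed RPKM of the 3 inhibitors was 2253 under no cytokine, 2640 under IL-17A, 2698 under BMP-2 and 3686 under both. The sum of the 7 metalloproteinases was 425, 411, 405 and 397 RPKM. The inhibitor sum was therefore 5.30, 6.43, 6.67 and 9.29 times the protease sum. The inhibitor sum spanned the wider range. *Timp1* was 64.9% of the inhibitor RPKM under no cytokine, 73.5% under IL-17A, 70.5% under BMP-2 and 89.0% under both. Per length of exon, *Timp1* was 2.11 times *Timp2* without cytokine (2.05 to 2.17) and 9.25 times with both (8.99 to 9.51), with 3.00 and 2.71 for IL-17A and BMP-2 alone. These ratios are within a library and need no scaling between libraries.

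**Figure D3:**
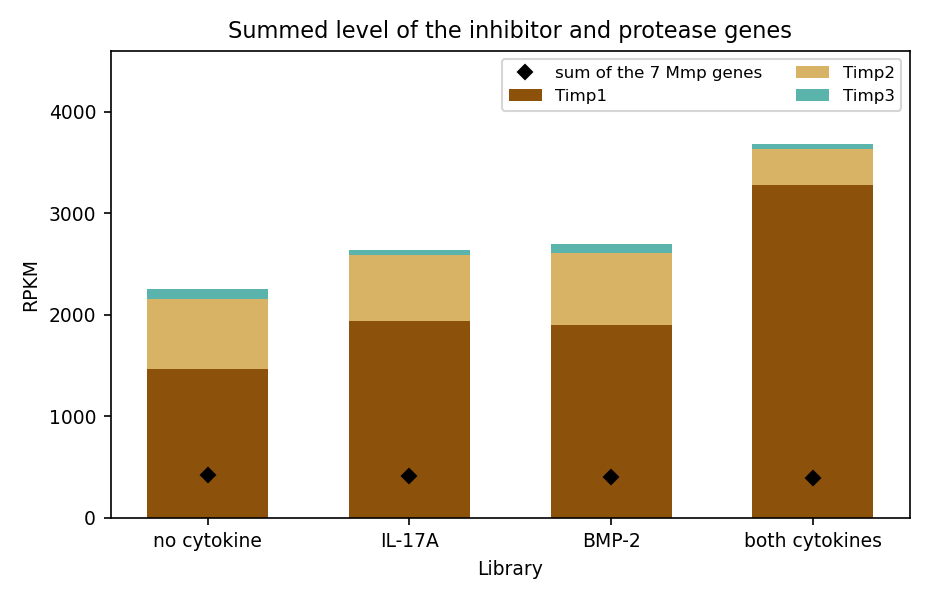
Summed RPKM of *Timp1*, *Timp2* and *Timp3* (stacked bars) and of the 7 metalloproteinases (diamonds) in the 4 libraries. The inhibitor sum is 2253 RPKM without cytokine and 3686 with both while the diamonds lie between 397 and 425, and *Timp1* makes up 89.0% of the bar with both.

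The make-up of the *Timp2* reads differed between libraries as well. Reads that cross an exon junction, called spliced reads, were 44.0% of its exon reads under no cytokine (43.2 to 44.9), 53.2% under IL-17A (52.3 to 54.2), 51.5% under BMP-2 (50.7 to 52.3) and 30.5% under both (29.4 to 31.6). The 4 intervals of *Timp2* left a gap between the library with both and each of the others. The change of -21.0 percentage points from BMP-2 to both was equalled or exceeded by 4 of the 839 deeply read genes, *Timp2* among them. The central 90% of these genes ran from -9.54 to 7.53 points. From no cytokine to both the change was -13.6 points, with 17 such genes, and from IL-17A to both -22.7, with 7. Over no cytokine, the share was 9.19 points higher under IL-17A and 7.45 under BMP-2, which 7 and 5 genes equalled or exceeded. All these counts include *Timp2*. Spliced reads over all genes were 53.1 to 53.9% of exon reads.

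Split by kind, *Timp2* had 5928, 6034, 7137 and 2142 spliced reads and 7532, 5301, 6723 and 4884 unspliced exon reads under no cytokine, under IL-17A, under BMP-2 and under both. In spliced reads the ratio to no cytokine was 1.09 under IL-17A, 1.17 under BMP-2 and 0.347 under both. In unspliced exon reads it was 0.767, 0.876 and 0.620. With a single cytokine the direction for *Timp2* thus depended on which reads were counted, while with both cytokines it was lower by either. The departure from additivity of *Timp2* was -1.87 (-1.96 to -1.79) in spliced reads. *Timp2* has 2 annotated transcripts in the deposited tables, and the counts do not tell which of them the unspliced reads came from. *BC100451*, which overlaps *Timp2*, had 0 reads in every library.

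The spliced share of the other deeply read genes moved less. It was 75.7 to 78.9% for *Timp1*, 51.7 to 55.4% for *Mmp14*, 53.5 to 60.7% for *Mmp2*, 77.5 to 83.5% for *Mmp23* and 9.59 to 11.8% for *Timp3*. The difference between both cytokines and BMP-2 lay inside the central 90% of the 839 genes for each of these 5.

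**Figure D4:**
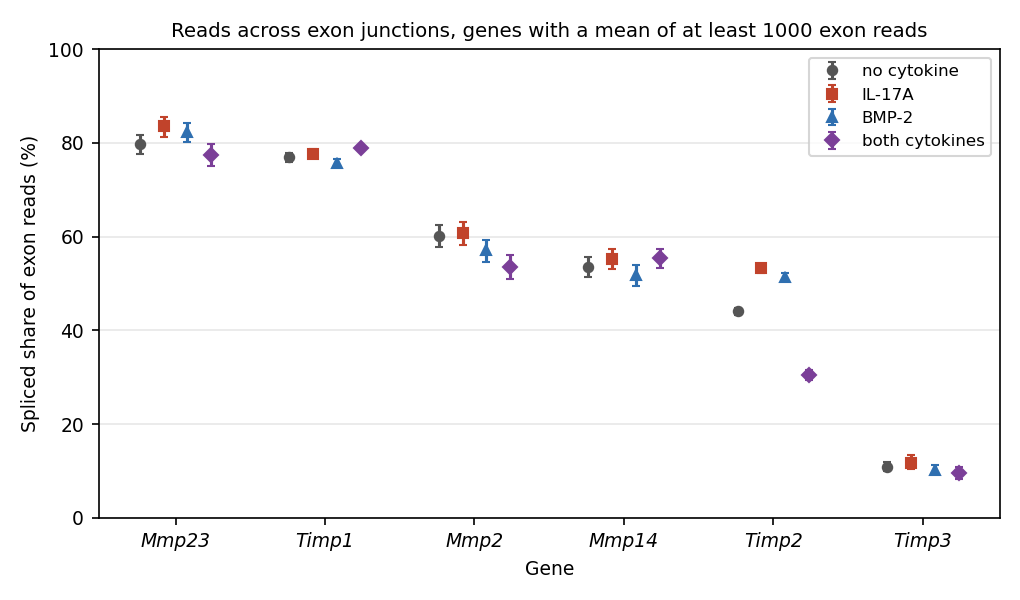
Share of exon reads that cross an exon junction (%) in the 4 libraries, for the 6 genes averaging at least 1000 exon reads. Bars are exact 95% counting intervals; *Timp2* is at 30.5% with both cytokines against 44.0 to 53.2% in the other 3 libraries.

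The 2 genes without measurable levels differed in kind. *Mmp9*, gelatinase B, which osteoclasts and myeloid cells make in bone, had 16 exon reads with BMP-2 alone, 12 of them spliced, and 0 in the other 3 libraries. The level with BMP-2 was 0.892 RPKM. Against a limit of 3 reads per library, and with the 16 reads taken as exact, *Mmp9* was at least 5.23-fold higher with BMP-2 than without cytokine, and at least 5.48-fold lower with both than with BMP-2. With the counting error of the 16 reads included, the exact interval of the ratio began at 3.78 for BMP-2 over no cytokine and ended at 0.253 for both over BMP-2. *Mmp13*, collagenase-3, which hypertrophic chondrocytes and osteoblasts make, had 0 exon reads in all 4 libraries, which allows up to 0.221 to 0.250 RPKM. Transcripts below that level were not detectable at this depth.

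Some macrophage markers and *Atp6v0d2* of the osteoclast list moved with *Mmp9*, while other markers of both lists did not. The summed level of 8 macrophage markers, mostly *Lyz2*, was 106, 99.9, 294 and 72.6 RPKM under no cytokine, under IL-17A, under BMP-2 and under both. Of the 8, 8, 5, 7 and 3 had a read. *Lyz2*, lysozyme, had 548, 509, 1728 and 410 reads in this order, and *Itgam*, which encodes CD11b, had 2, 0, 29 and 0. *Cd68* had 33, 0, 50 and 10 reads, *Ctss* 26, 26, 57 and 0, *Fcgr3* 25, 0, 49 and 0, and *Ptprc* 4, 1, 4 and 0. *Atp6v0d2*, an osteoclast proton pump subunit, had 35 reads with BMP-2 and 0 elsewhere. The macrophage receptor gene *Csf1r* did not follow, with 130, 108, 61 and 183 reads, and *Adgre1* had 24, 17, 0 and 0. The 7 osteoclast markers, mostly *Ctsk*, summed to 83.5, 53.9, 82.5 and 57.5 RPKM, so that this sum was not highest with BMP-2. *Acp5* had 0, 11, 13 and 0 reads, *Oscar* 5, 0, 1 and 0, and *Ocstamp* 1, 9, 0 and 0. *Calcr* and *Dcstamp* were at 0 in every library. *Mmp12*, macrophage elastase, named here after its values were seen, had 11, 18, 47 and 7 reads. Neutrophil markers had at most 11 reads in all per library. The part of such cells in the *Mmp9* reads was not tested.

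*Mmp3* and *Mmp13* belong to a cluster of 10 metalloproteinase genes on chromosome 9, from 7272514 to 7699585, whose values are described here after they were seen. Of these, 5 genes had no exon read in any library, and *Mmp3* alone had 100 or more reads in a library. *Mmp8*, the neutrophil collagenase, had 40, 17, 31 and 0 reads, *Mmp10*, stromelysin-2, had 9, 0, 0 and 0, and *Mmp27* had 1, 3, 0 and 14. *Mmp27*, like *Mmp3*, had most reads with both cytokines, and *Mmp8* and *Mmp10* had none there, all at small counts. The AP-1 match of *Mmp3* in its printed window has a counterpart in *Mmp13*, which had no exon reads.

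Of 16 other metalloproteinases listed, 6 were measured and 6 had no read in any library. Over no cytokine, IL-17A called 0 higher and 2 lower of these 6, against 10.9% and 9.91% of all measured genes. BMP-2 called 1 higher and 2 lower, against 10.7% and 11.7%. Both called 0 higher and 2 lower, against 12.2% and 14.1%. *Mmp8* and *Mmp28*, the latter named after its values were seen, were called lower with IL-17A and with both. With BMP-2, *Mmp12* was called higher and *Mmp17* and *Mmp28* lower. *Mmp8*, *Mmp12* and *Mmp28* averaged only 22, 20.75 and 14.25 reads. *Mmp19*, a secreted enzyme that cleaves basement membrane proteins, had 251, 207, 384 and 314 reads under no cytokine, under IL-17A, under BMP-2 and under both. *Mmp17*, a glycolipid-anchored enzyme, had 146, 88, 60 and 103 reads and was lower with BMP-2 (ratio 0.403, 0.293 to 0.548). *Mmp16*, a membrane-type enzyme, had 23 to 38 reads and was not called in any comparison.

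Among inhibitors outside the TIMP genes studied, *Reck* differed most of those measured. *Reck* encodes a membrane-anchored inhibitor of MMP-2, MMP-9 and MMP-14. It had 314 reads under no cytokine, 201 under IL-17A, 335 under BMP-2 and 72 under both. Its ratio was 0.698 (0.581 to 0.835) under IL-17A, 1.05 (0.895 to 1.23) under BMP-2 and 0.219 (0.167 to 0.284) under both, all over no cytokine. With both it was 0.209 times the level with BMP-2 (0.16 to 0.271). Like *Timp2*, *Reck* was lowest in the library with both cytokines. *A2m*, a plasma inhibitor that traps proteases, had 23 reads with both and 0 elsewhere, and *Tfpi2*, a serine protease inhibitor of the matrix, had 49 to 72 reads and no call. *Timp4* had at most 4 reads.

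Of 12 genes for activation, induction and clearance of metalloproteinases, 11 were measured. Over no cytokine, IL-17A called 1 higher and 0 lower, against 10.9% and 9.91% of all measured genes. BMP-2 called 1 higher and 1 lower, against 10.7% and 11.7%. Both called 2 higher and 0 lower, against 12.2% and 14.1%. The calls were of *Pcsk5* and *Plau*, named after their values were seen and averaging only 43 and 33.75 reads. Under no cytokine, under IL-17A, under BMP-2 and under both, *Pcsk5* had 6, 75, 0 and 91 reads and *Plau* 20, 13, 43 and 59. *Plat*, tissue plasminogen activator, had 165, 243, 235 and 327 reads and a ratio of 1.89 (1.57 to 2.30) with both. *Bsg*, the MMP inducer basigin, had 3237 to 4098 reads and ratios of 0.909 to 1.04. *Ddr1*, a collagen receptor, had 1178, 1523, 1503 and 1453 reads, and *Lrp1*, an endocytic receptor that clears MMPs and TIMPs, had 2369, 2557, 2981 and 2952. *Ctsk*, cathepsin K, had 625, 352, 600 and 442 reads. None of *Plat*, *Bsg*, *Ddr1*, *Lrp1* and *Ctsk* reached 2-fold over no cytokine.

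Among the ADAM and ADAMTS proteases, some of which TIMP-3 inhibits, more were called lower than higher with both cytokines over no cytokine and over BMP-2. Of 19 measured, IL-17A over no cytokine called 2 higher and 2 lower, BMP-2 called 3 and 1, and both called 2 and 6. With both, 12.2% of all genes were called higher and 14.1% lower. The shares were 10.9% and 9.91% for IL-17A, and 10.7% and 11.7% for BMP-2. Both over BMP-2 called 1 higher and 6 lower, against 12.9% and 14.1% of all genes. Its median log2 ratio was -0.47, beside -0.01 over all genes. Both over IL-17A called 3 higher and 4 lower, against 10.1% and 13.5%, with a median of -0.12. *Adamts5*, an aggrecanase, had 743, 423, 817 and 208 reads, a ratio of 0.268 (0.228 to 0.312) for both over no cytokine. *Adamts1*, which cleaves versican, had 2105, 1048, 1079 and 822 reads, and was 0.373 (0.344 to 0.405) with both. *Adam33* had 143, 128, 252 and 70 reads, and *Adamts12* 222, 59, 150 and 89. These 4 were called lower with both over no cytokine. *Adam9* had 1844, 1041, 1478 and 1094 reads and no call, and *Adamts2*, a procollagen peptidase, had 2157, 2168, 2874 and 2805.

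Genes for matrix that these enzymes cleave were mostly within 2-fold. Of 12, all measured, IL-17A over no cytokine called 1 higher and 1 lower, BMP-2 called 0 and 1, and both called 1 and 1. Beside these, 10.9% of all measured genes were called higher and 9.91% lower for IL-17A. The shares were 10.7% and 11.7% for BMP-2, and 12.2% and 14.1% for both. *Col1a1*, *Col1a2* and *Col3a1*, the fibrillar collagens, had ratios of 0.781, 0.665 and 0.645 for both over no cytokine. *Spp1*, osteopontin, a substrate of MMP-3, had 3729, 6094, 4769 and 11039 reads, and its ratio for both over no cytokine was 2.83 (2.73 to 2.94). *Dcn*, decorin, had 1077, 425, 472 and 346 reads and was called lower with both (0.307, 0.271 to 0.347). *Tnc*, tenascin C, had 1080, 1992, 832 and 1625 reads, with a ratio of 2.01 (1.87 to 2.17) for IL-17A. *Spp1* was, as *Timp1* and *Mmp3* were, highest in the library with both cytokines.

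Of 12 transcription factors of the AP-1, ETS and RUNX families, which are known to act on metalloproteinase promoters, 11 were measured. IL-17A over no cytokine called 2 higher and 2 lower, BMP-2 called 1 and 2, and both called 1 and 1. Over all measured genes, 10.9% were called higher and 9.91% lower for IL-17A. The shares were 10.7% and 11.7% for BMP-2, and 12.2% and 14.1% for both. *Fosl1*, which encodes the AP-1 subunit FRA-1, had 473, 619, 605 and 932 reads and a ratio of 1.88 (1.68 to 2.11) with both. *Fosl2* had 312, 298, 355 and 564 reads. *Fos* had 219, 57, 97 and 103 reads and was lower in every library with a cytokine, with ratios of 0.284, 0.435 and 0.449. *Jun* had 411, 357, 260 and 589 reads, and both over BMP-2 gave 2.21 (1.90 to 2.56). *Etv5*, an ETS factor, had 324, 125, 484 and 293 reads, with a ratio of 0.420 (0.339 to 0.518) for IL-17A over no cytokine. The 2 called higher with IL-17A, named after their values were seen, were *Etv4* and *Ets2*. *Etv4* had 9, 98, 58 and 28 reads, and *Ets2* had 69, 135, 88 and 75.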

How the data were processed

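The 4 RNA libraries of PαS cells, 1 per condition, were grouped by the labels. The authors amplified full-length cDNA with a low-input kit that does not mark strand, used an Ion Proton for sequencing and CLC Genomics Workbench for read counts. The program's version and settings were not given in the sources used here. Build mm10 is named in the submitters' processing notes. The deposited counts are total, unique, spliced, exon and intron reads per gene, and the deposited RPKM divides exon reads by exon length and library size.

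TMM factors from edgeR 4.0.16 (R 4.3.3) scaled the exon reads, and ratios with exact conditional binomial 95% intervals were computed in Python 3.11.15 with scipy 1.17.1. Depth was 4190612 to 4719412 exon reads. Each of the 3 treated libraries was compared with no cytokine, and the library with both with each single cytokine. Genes averaging at least 10 exon reads were compared. Cytokine effects were tested in an additive model with edgeR's quasi-likelihood test, and DESeq2 1.42.0 as an alternative, at an adjusted p of 0.05. A limit of 3 reads stands for 0. Alternatives were other scalings, unique or spliced reads, other fold thresholds and filters. Unspliced reads were added after seeing the data.

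The genes and lists were chosen with earlier results of these data known. Named in the text were all 10 genes, genes overlapping them, from each list up to 3 with the most reads and up to 3 of the largest log2 ratio in IL-17A over no cytokine or both over BMP-2 (mean of at least 50 reads), and for the 3 genes of widest range the 3 with the nearest ratios. A search of protein motifs was planned and not done.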

Additional observations from a re-analysis of the deposited data

How the results depend on the processing

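No paired analysis was possible because each condition has 1 library, so that no replicate numbers are shared, and for the same reason no replicate could be left out. Without the additive model's term for the other cytokine, calls numbered 1 for IL-17A and 0 for BMP-2. The number of the 8 genes called at 2-fold was the same with DESeq2 size factors in all 5 comparisons. For IL-17A over no cytokine it went from 1 to 2 at 1.5-fold and 0 at 3-fold. For BMP-2 over no cytokine it went from 0 to 1 with library totals, 1 with unique reads and 1 at 1.5-fold. For both over no cytokine it went from 3 to 1 at 3-fold, 2 with library totals, and 4 with unique reads, spliced reads or 1.5-fold. For both over BMP-2 it went from 2 to 1 with library totals, 3 with unique reads, 4 at 1.5-fold and 1 at 3-fold. For both over IL-17A it went from 1 to 2 with spliced reads, 3 at 1.5-fold and 0 at 3-fold. In the additive model, genes called for IL-17A went from 1 to 49 with DESeq2, 2 without a filter on low counts and 0 with unique reads (lowest edgeR adjusted p = 0.0769, 578 genes having an unadjusted p under 0.05), and those for BMP-2 from 0 to 9 with DESeq2. The fold thresholds act by construction, and for the other settings the cause was not tested. Of 40 single ratios, 38 moved by less than their counting interval with library totals, 34 with unique reads, 23 with spliced reads and 17 with unspliced exon reads, where 9 changed sign, against 1 with spliced reads (*Timp2* for IL-17A). Depth left *Mmp9* and *Mmp13* with bounds only, and gave *Mmp3* the widest intervals of the 8 genes.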
